A study of Mus musculus with 10 samples.

Results

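Interferon-stimulated genes were followed in colorectal tumours and in adjacent colon tissue of mice given azoxymethane and dextran sulfate sodium. The set holds 37 genes, chosen by symbol as known interferon-stimulated genes, out of 24525 genes in the expression table, and all 37 were found. Azoxymethane (AOM) is a mutagen that initiates colon tumours, and dextran sulfate sodium (DSS) is a polymer that injures the colonic epithelium and causes colitis. The 2 groups were 5 tumours, called CRC-tumor in the labels, and 5 samples of adjacent tissue, called Adjacent-normal. All came from male C57BL/6N mice (the strain field says C57BL/6) that were 7 weeks old at the start and had AOM at 12.5 mg/kg and then 3 cycles of DSS, each of 5 days at 2% followed by 16 days of water, with tissue taken 10 weeks after AOM. The adjacent tissue therefore carries the same exposure as the tumours, and no library of untreated colon was analysed here. The titles number each group 1 to 5, but the source label names a single mouse for all libraries, so which libraries share an animal is not settled, and p-values measure only the spread between these samples.

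Interferons are secreted cytokines that tell a cell of infection. Type I interferons, and type III interferons in epithelia, act through receptors that activate the kinases JAK1 and TYK2, which lead to a complex holding STAT2 and IRF9 that binds the interferon-stimulated response element. Type II interferon, interferon gamma, has a receptor of its own and acts mainly through the gamma-activated site. The genes switched on in this way encode sensors of foreign nucleic acid, enzymes and GTPases that block viruses or intracellular pathogens, and regulators that amplify the response or shut it off. Gut epithelium and the immune cells beneath it both express them. In bulk tissue, fewer cells of a type and less RNA per cell cannot be told apart.

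Many members carry the response element next to their start site. A core of the element, GAAA, then any 2 bases, then GAAA, was searched on both strands of the RefSeq promoter windows (GRCm38.p6, 250 bases before to 50 bases after each gene's start). Of the 29 members with a window, 17 held a match (58.6%), against 1079 of 27025 genes with a window (3.99%). For the gamma-activated site, searched as TTCNNNGAA on both strands, 10 of 29 members (34.5%) and 2582 of 27025 genes (9.55%) held a match. The last 150 bases before the start are shown for Isg15, Ifit1, Bst2 and Oas1a, the most abundant members of their role groups, all with matches there, and for Irf7 and Oasl1, members that fell and have none, with matches to this core on either strand in capitals.
Isg15 (chr4:156200819-156200968, minus strand): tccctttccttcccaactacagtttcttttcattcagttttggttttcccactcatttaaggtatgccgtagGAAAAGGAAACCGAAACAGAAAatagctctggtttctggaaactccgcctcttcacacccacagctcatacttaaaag
Ifit1 (chr19:34640739-34640888, plus strand): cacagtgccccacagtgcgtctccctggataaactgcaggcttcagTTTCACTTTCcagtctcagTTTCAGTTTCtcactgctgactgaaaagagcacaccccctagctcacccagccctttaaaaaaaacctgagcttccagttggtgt
Bst2 (chr8:71537473-71537622, minus strand): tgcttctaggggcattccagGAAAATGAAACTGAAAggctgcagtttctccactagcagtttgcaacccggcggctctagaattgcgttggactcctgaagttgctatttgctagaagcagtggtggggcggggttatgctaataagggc
Oas1a (chr5:120907526-120907675, minus strand): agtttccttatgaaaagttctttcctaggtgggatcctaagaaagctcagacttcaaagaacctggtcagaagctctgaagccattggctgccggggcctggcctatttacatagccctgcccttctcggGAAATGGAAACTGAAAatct
Irf7 (chr7:141266425-141266574, minus strand): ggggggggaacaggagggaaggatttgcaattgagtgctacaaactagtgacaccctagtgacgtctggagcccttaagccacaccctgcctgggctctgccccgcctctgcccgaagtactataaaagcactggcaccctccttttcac
Oasl1 (chr5:114923090-114923239, plus strand): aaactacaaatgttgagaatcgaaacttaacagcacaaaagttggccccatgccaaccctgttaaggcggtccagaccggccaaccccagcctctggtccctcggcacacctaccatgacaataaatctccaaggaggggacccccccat
Isg15 holds 3 overlapping matches, the first of them at position -78 from the start. Ifit1 holds 2 separate matches, at positions -104 and -85, on the opposite strand. Bst2 and Oas1a hold 2 overlapping matches each, and that of Bst2 also overlaps a TTCNNNGAA match. Oas1a holds a separate TTCNNNGAA match at position -98. Irf7 and Oasl1 hold none in these windows. Among the other members described below, Ddx58 and Ifih1 held their matches after the start, at bases 3 and 33. Irf1 held no match to this core but a TTCNNNGAA match at position -90. A match is a run of letters and was not tested as a binding site.

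Of the interferon-stimulated genes, 8 passed the test between tumours and adjacent tissue, and all 37 varied more within groups than the median tested gene. Of the 37 members, all of which passed the low-value filter, 3 rose and 5 fell in tumours by the limma test on log2(FPKM + 1), at an adjusted p under 0.05, and 29 did not pass. That is 21.6% of the members, against 76.5% of all 13016 genes tested. The share of all genes that rose was 57.2% and that of all genes that fell was 19.3%. The median log2 change of the members was -0.21, while that of all tested genes was 0.35, and 31 of 37 members lay below the median of all tested genes. FPKM, fragments per kilobase of transcript scaled to the mapped fragments of the library, is relative to the rest of a library. With each library's median subtracted 0 members rose and 8 fell, against 34.5% and 33.3% of all tested genes (67.7% in either direction), the members' median was -0.54, and 8 members changed sign. Quantile normalization gave 0 and 7, against 36.6% and 30.2% of all tested genes (66.8% in either direction). Without 1 library the number that fell was 2 (adjacent sample 2, tumour 1 or tumour 5 left out) or 3 (adjacent sample 1 or tumour 3 left out), and otherwise 4 to 6. The spread within groups had a median SD of 0.70 on the log2 scale over the members and of 0.18 over all tested genes, beside a median absolute log2 change of 0.48 and 0.54, and all 37 members were above that median of all tested genes.

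The order of the libraries was much the same for most members. Summed over the 37 members, tumours 1 to 5 had 429, 1114, 608, 1030 and 345 FPKM, and adjacent samples 1 to 5 had 760, 1642, 669, 768 and 541 FPKM. Adjacent sample 2 was therefore highest of all, and tumours 2 and 4 stood above the other 3 tumours and above the other 4 adjacent samples. Tumours 2 and 4 were the top pair of tumours for 35 of 37 members, all but Irf9 and Eif2ak2. Tumours 1 and 5 were the bottom pair for 34 of 37. Among adjacent samples, number 2 was highest for 35 of 37 members, all but Irf8 and Isg20, and number 5 was lowest for 27. Adjacent sample 2 was the highest of all 10 libraries for 26 members. The median over all tested genes did not follow this order: it lay between 3.73 and 3.82 on the log2(FPKM + 1) scale in tumours and between 3.36 and 3.53 in adjacent samples, where sample 2 was the lowest.

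**Figure D1:**
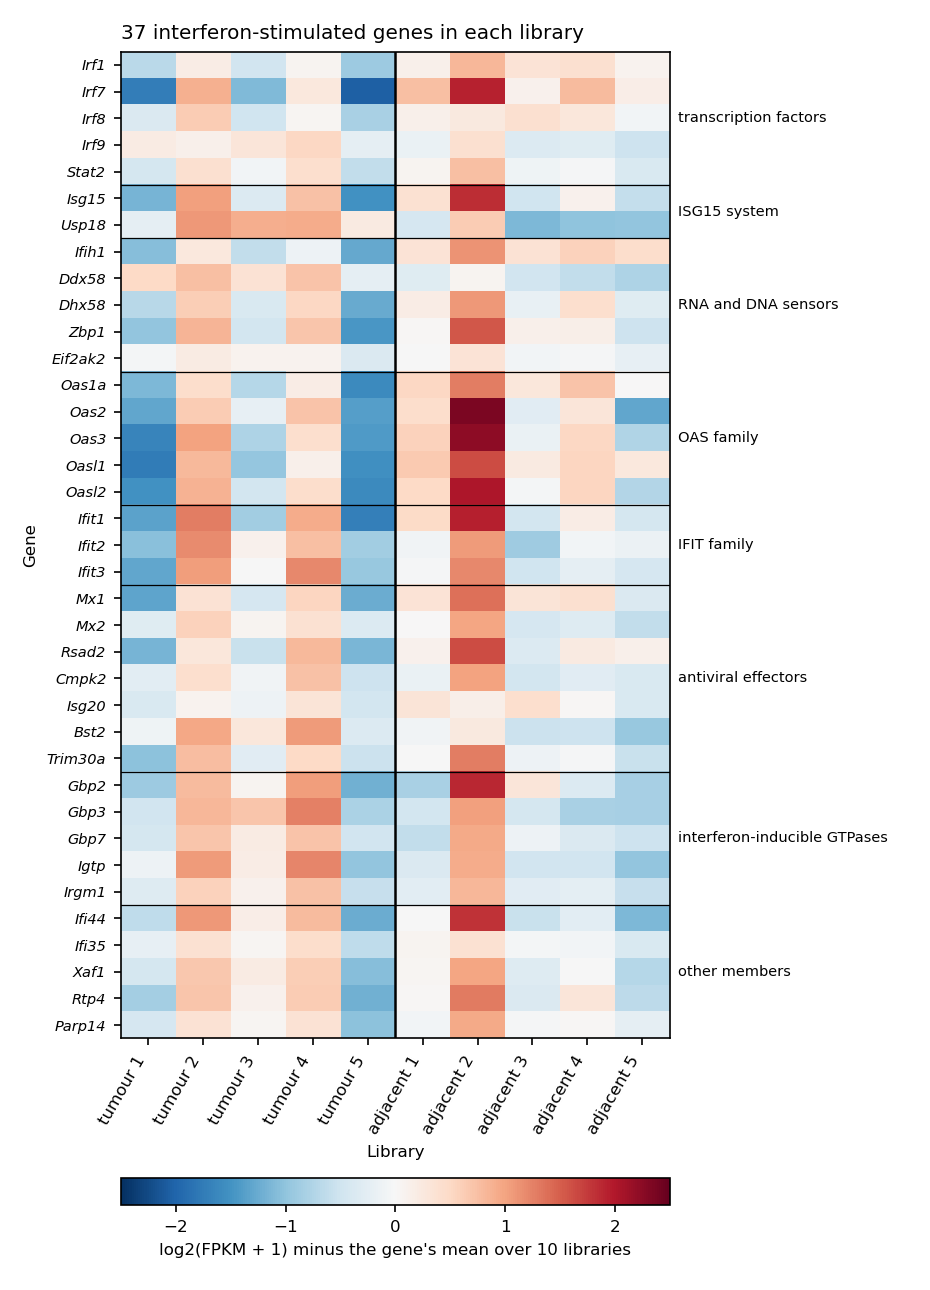
Heat map of the 37 members (rows, grouped by role) in 5 tumours and 5 adjacent samples (columns); colour is log2(FPKM + 1) minus the gene's mean over the 10 libraries, red for higher and blue for lower. Tumours 2 and 4 and adjacent sample 2 are red for most members, and tumours 1 and 5 are blue. Usp18 and Ddx58 are among the members with higher levels in most tumours than in most adjacent samples.

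Markers of cell types moved with the groups and in part with the libraries. Of all tested genes 57.2% rose and 19.3% fell, and with medians subtracted 34.5% and 33.3%. The 8 absorptive colonocyte markers summed to 244 to 1209 FPKM in tumours and to 2755 to 4119 FPKM in adjacent samples, and all 8 fell. Tumours 2 and 4 had the most, 1209 and 649 FPKM, against 244 to 299 FPKM in the other 3 tumours, and also the most of 7 goblet cell markers, 2913 and 3005 FPKM, against 702 to 1162 FPKM. Of 9 macrophage markers 8 rose, with sums of 658 to 1141 FPKM in tumours and 114 to 330 FPKM in adjacent samples. Of 10 T and NK cell markers 6 were tested and 1 rose; the sum was 31.0 FPKM in tumour 2, 15.4 FPKM in tumour 4, 10.1 to 11.7 FPKM in the other 3 tumours, and 7.54 to 14.1 FPKM in adjacent samples. Fibroblast and endothelial markers all rose as deposited, 6 of 6 and 5 of 5, with sums of 571 to 964 and 36.4 to 55.6 FPKM in tumours and 74.4 to 191 and 9.78 to 21.2 FPKM in adjacent samples. Adjacent sample 2 had the most goblet cell markers of all libraries, 16802 FPKM, but its macrophage and T and NK cell sums, 142 and 12.5 FPKM, were within the range of the other adjacent samples. Of 6 neutrophil markers 5 rose and Ly6g fell, with sums of 171 to 458 FPKM in tumours and 103 to 349 FPKM in adjacent samples. Of 8 conventional dendritic cell markers 3 were tested and all 3 rose, with sums of 11.6 to 34.5 FPKM in tumours and 3.91 to 9.24 FPKM in adjacent samples. Of 10 B cell markers 4 were tested and 2 fell, with sums of 2.43 to 14.5 FPKM in tumours and 6.89 to 57.6 FPKM in adjacent samples. For plasmacytoid dendritic cells, known for making type I interferon, 5 of 9 markers were tested: Tcf4 and Runx2 rose, and Klk1, Spib and Pacsin1 fell. Their sum, 95.4 to 234 FPKM in tumours and 826 to 1297 FPKM in adjacent samples, was mostly Klk1 in adjacent samples, and Siglech, a defining marker too low to be tested, was at 0.06 to 1.46 FPKM in tumours and 0.05 to 0.25 FPKM in adjacent samples. Tumours 2 and 4 were also the top pair of tumours for fibroblast markers, at 964 and 822 FPKM. They were so too for conventional dendritic cell (34.5 and 19.1 FPKM), B cell (14.5 and 6.2 FPKM) and plasmacytoid dendritic cell markers (141 and 234 FPKM). The plasmacytoid sums in tumours 2 and 4 were mostly Klk1, at 102 and 193 FPKM. Spib and Pacsin1 were also highest in this pair, but Tcf4 was lowest there, at 29.0 and 35.6 FPKM. Runx2 and Siglech did not have it as the top pair. For macrophage, endothelial and neutrophil markers tumours 2 and 4 were not the top pair. With medians subtracted 4 of 5 endothelial and 2 of 3 tested conventional dendritic cell markers rose, and quantile normalization gave the same counts. Of the 6 tested T and NK cell markers 0 rose under either scaling. Of the 4 tested B cell markers 4 fell with medians subtracted and 3 with quantile normalization. Counts of the other lists did not move. The part of these cell types in the changes below was not tested.

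Among the transcription factors, Irf1 and Irf7 fell. Irf1, which interferon gamma induces and which activates many of the other members, was at 47.8, 88.4, 55.5, 81.7 and 41.0 FPKM in tumours 1 to 5, against 84.5, 138, 98.7, 102 and 82.4 FPKM in adjacent samples 1 to 5. Each tumour lay below its like-numbered adjacent sample, and only tumour 2 reached into the adjacent range. The log2 change was -0.71 (SE 0.22, n = 5 per group, limma adjusted p = 0.0136), and the call held without any one of the 10 libraries. Irf7, the factor that amplifies type I interferon production, was at 14.3, 92.2, 22.4, 59.9 and 11.3 FPKM in tumours and at 83.8, 191, 53.8, 86.7 and 55.4 FPKM in adjacent samples. Tumours 1, 3 and 5 lay below every adjacent sample, while tumours 2 and 4 lay within the adjacent range. Its log2 change was -1.49 (SE 0.58, limma adjusted p = 0.0363), but it passed in only 4 of 10 fits that left out 1 library: without adjacent sample 1, 2 or 4 or tumour 1, 3 or 5 the adjusted p was 0.0602 to 0.0875. Irf7 overlaps Phrf1 on the other strand, and the library kit does not mark strand, so reads of the overlap cannot be told apart. Irf8, a factor of myeloid and B cells, Irf9 and Stat2, partners in the complex that binds the response element, did not pass, with means of 22.6, 34.8 and 17.4 FPKM in tumours and 28.5, 27.1 and 18.9 FPKM in adjacent samples. Irf8 passed with medians subtracted, at -0.73 (limma adjusted p = 0.0242), and without tumour 2; Irf9 passed without adjacent sample 2 and without tumour 5. Irf9 overlaps Rnf31 on the same strand, so some of its reads may be shared.

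Of the ISG15 system, Usp18 rose while Isg15 did not pass. ISG15 is a ubiquitin-like protein that is attached to other proteins during an interferon response, and USP18 removes it and also blocks the type I receptor, so that it ends the response. Usp18 (chromosome 6, 121245906 to 121270917, GRCm38, GENCODE vM21) was at 11.3, 29.3, 25.8, 26.4 and 15.8 FPKM in tumours, against 9.72, 21.1, 5.56, 6.09 and 6.19 FPKM in adjacent samples. All 5 tumours exceeded their like-numbered adjacent samples, and all exceeded the 4 adjacent samples other than number 2. The log2 change was 1.17 (SE 0.37, limma adjusted p = 0.0136). It held without any one library, but not with medians subtracted (0.84, adjusted p = 0.0767) or with quantile normalization (0.88, adjusted p = 0.0611). Isg15 (chromosome 4, 156199424 to 156200818) was at 12.6, 60.9, 22.9, 49.3 and 9.61 FPKM in tumours and 38.3, 109, 20.6, 31.8 and 19.1 FPKM in adjacent samples. The groups overlapped widely, with a change of -0.50 on the log2 scale (SE 0.59; limma, adjusted p = 0.45).

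The sensors of viral RNA moved in opposite directions. Ddx58, which encodes RIG-I, a sensor of short RNA with a triphosphate end, was at 14.6, 17.8, 13.3, 17.4 and 8.54 FPKM in tumours and at 8.06, 10.7, 6.97, 6.24 and 5.53 FPKM in adjacent samples. It rose, by 0.84 on the log2 scale (SE 0.21; limma, adjusted p = 0.00345), and 4 of 5 tumours lay above every adjacent sample. Ifih1, which encodes MDA5, the related sensor of long double-stranded RNA, was at 6.08, 16.7, 8.6, 12.5 and 5.12 FPKM in tumours, against 17.7, 31.1, 18.0, 20.9 and 19.0 FPKM in adjacent samples. It fell, by 1.13 on the log2 scale (SE 0.29; limma, adjusted p = 0.00429), and it was the 1 member of 37 whose groups did not overlap, which holds for 60.9% of all tested genes. Both calls held without any one library. With medians subtracted Ifih1 stayed called at -1.46 (adjusted p = 0.00182), while Ddx58 did not pass, at 0.51 (adjusted p = 0.0654), nor with quantile normalization, at 0.49 (adjusted p = 0.0801). Ddx58 spans 40203773 to 40239828 on chromosome 4 and Ifih1 spans 62595798 to 62646255 on chromosome 2. Dhx58, the related regulator LGP2, and Zbp1, a sensor of Z-form nucleic acid that can trigger necroptosis, did not pass; Zbp1, the most abundant sensor, was at 20.8, 76.6, 30.4, 68.3 and 14.7 FPKM in tumours and 42.8, 125, 46.3, 46.8 and 29.3 FPKM in adjacent samples, where number 2 stood far above the rest. Eif2ak2, the kinase PKR that stops translation on double-stranded RNA, had the steadiest level, 12.8 to 19.2 FPKM in tumours and 14.3 to 21.3 FPKM in adjacent samples.

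**Figure D2:**
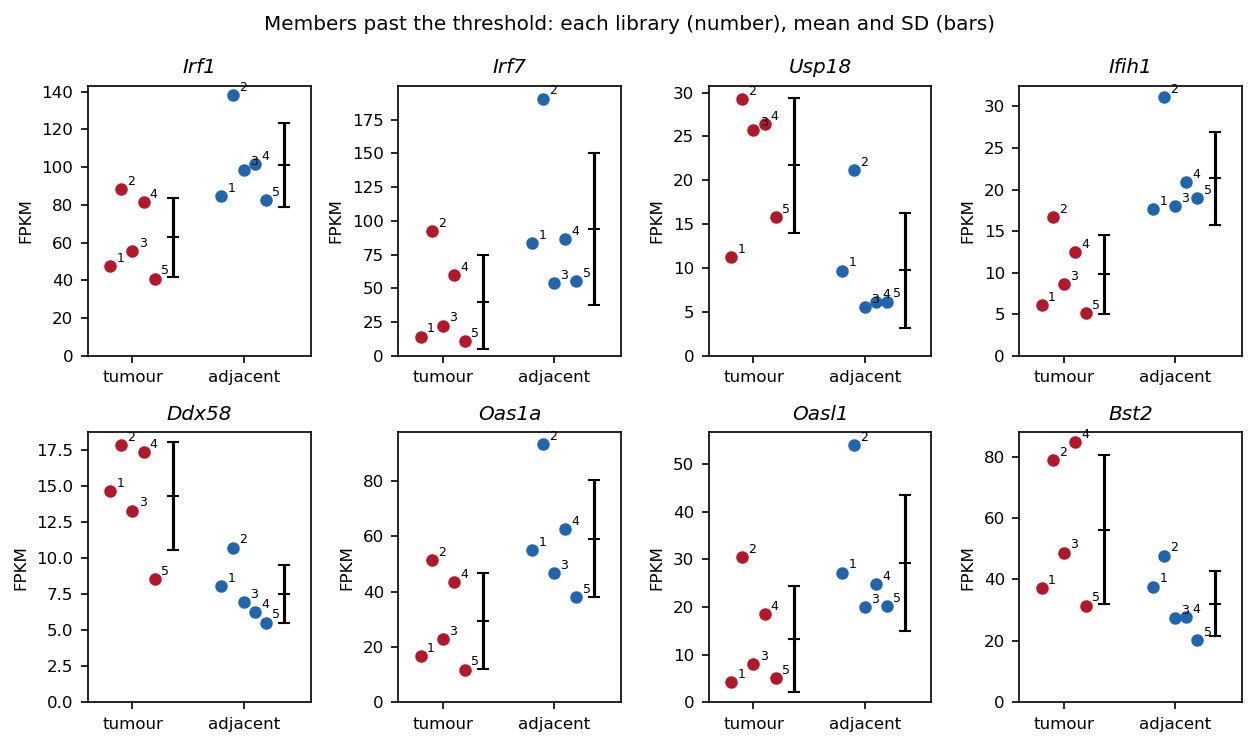
FPKM of the 8 members past the threshold, each point a library with its number, tumours left and adjacent samples right, with the mean and SD (n = 5) as a bar beside each group. Irf1, Irf7, Ifih1, Oas1a and Oasl1 are lower in tumours and Usp18, Ddx58 and Bst2 higher; adjacent sample 2 is the highest adjacent point in all 8 panels.

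Within libraries, these pairs of related genes shifted against each other. A ratio of FPKM in the same library does not depend on how libraries are scaled; the 4 ratios given were chosen after the values were seen and were not tested. The ratio of Usp18 to Isg15 was 0.897, 0.480, 1.13, 0.535 and 1.64 in tumours 1 to 5, against 0.254, 0.194, 0.271, 0.192 and 0.324 in adjacent samples 1 to 5. The lowest tumour lay above the highest adjacent sample, and tumours 2 and 4, where the set was most abundant, had the lowest tumour ratios. The ratio of Ddx58 to Ifih1 was 2.41, 1.07, 1.55, 1.39 and 1.67 in tumours and 0.456, 0.345, 0.386, 0.298 and 0.292 in adjacent samples. RIG-I transcripts thus exceeded those of MDA5 per length in every tumour and were under them in every adjacent sample. The ratio of Irf9 to Irf7 was 0.356 to 2.43 in tumours and 0.209 to 0.437 in adjacent samples, and these overlapped through tumour 2.

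**Figure D3:**
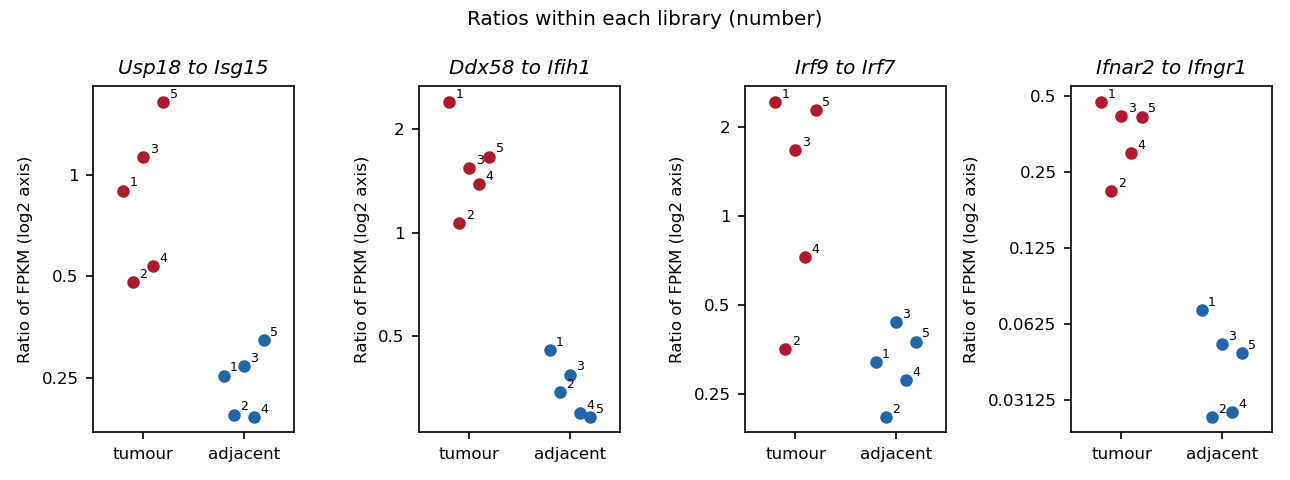
Ratio of FPKM of 4 gene pairs within each library, on a log2 axis, tumours left and adjacent samples right, each point a library with its number. Usp18 to Isg15, Ddx58 to Ifih1 and Ifnar2 to Ifngr1 separate the groups without overlap, and Irf9 to Irf7 overlaps through tumour 2. The pairs were chosen after the values were seen and were not tested.

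Oligoadenylate synthetases make the short adenylate chains that activate RNase L, which degrades RNA in infected cells; of the 5 members of this family, Oas1a and Oasl1 fell and Oas2, Oas3 and Oasl2 did not pass. Oas1a (chromosome 5, 120896256 to 120907521) was at 16.7, 51.5, 22.8, 43.4 and 11.9 FPKM in tumours and 54.9, 93.3, 46.6, 62.7 and 38.1 FPKM in adjacent samples. Each tumour was below its like-numbered adjacent sample, and tumours 1, 3 and 5 were below all of them. The log2 change was -1.13 (SE 0.39, limma adjusted p = 0.0227), and it did not pass without adjacent sample 2 or tumour 1 or 5 (adjusted p 0.0506 to 0.0565). Oas1a belongs to a cluster of similar genes, so how reads were shared with them is uncertain. Oasl1, which in mice represses translation of Irf7, was at 4.31, 30.5, 8.13, 18.5 and 5.19 FPKM in tumours and 27.2, 54.0, 20.0, 24.8 and 20.3 FPKM in adjacent samples. Its log2 change was -1.32 (SE 0.49, limma adjusted p = 0.0302), lost without adjacent sample 1 or 2 or tumour 1, 3 or 5 (adjusted p 0.0517 to 0.0740). Oas2, Oas3 and Oasl2 had log2 changes of -0.61, -0.96 and -0.90, with SEs of 0.66, 0.64 and 0.60. In adjacent sample 2 these 3 genes were at 31.9, 33.8 and 101 FPKM, against at most 7.72, 10.0 and 35.3 FPKM in the other adjacent samples. Oas3 and Oasl2, like Oas1a, were lower in each tumour than in its like-numbered adjacent sample. With quantile normalization all 5 members kept a negative change. Subtracting medians lowers the change of every gene by the same amount, so it could not turn these signs.

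None of the 3 IFIT genes passed; IFIT proteins bind viral RNA that lacks host cap marks. Ifit1 was at 3.81, 28.2, 5.61, 21.9 and 2.69 FPKM in tumours and 16.0, 45.5, 7.83, 12.8 and 7.90 FPKM in adjacent samples. Tumours 2 and 4 stood far above the other 3, and its log2 change was -0.69 (SE 0.66, limma adjusted p = 0.358). Ifit2 and Ifit3 averaged 14.9 and 8.89 FPKM in tumours and 13.2 and 7.78 FPKM in adjacent samples; Ifit3 has a close copy, Ifit3b, so its level is uncertain.

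Of 7 other antiviral effectors, Bst2 rose and the rest did not pass. Bst2, tetherin, holds budding virus at the cell surface; it was at 37.1, 78.9, 48.8, 84.6 and 31.5 FPKM in tumours and at 37.7, 47.8, 27.5, 27.6 and 20.3 FPKM in adjacent samples. Tumours 2, 3 and 4 lay above every adjacent sample and tumours 1 and 5 within their range. The log2 change was 0.74 (SE 0.31, limma adjusted p = 0.0492); it passed in 3 of 10 fits that left out 1 library and was lost without adjacent sample 1, 3, 4 or 5 or tumour 2, 3 or 4 (adjusted p 0.0535 to 0.112). It was also lost with no filter on low genes (0.0628), with a filter at 5 FPKM (0.0504), with medians subtracted (0.291) and with quantile normalization (0.0996). Mx1, a GTPase against influenza-like viruses that is defective in C57BL/6 mice, was at 0.82 to 5.62 FPKM in tumours and 2.56 to 10.9 FPKM in adjacent samples. It passed with medians subtracted (-1.17, limma adjusted p = 0.0391) and with quantile normalization (-1.22, limma adjusted p = 0.0224). Isg20, an exonuclease that degrades RNA, likewise passed under both scalings, at -0.54 and -0.49 (limma adjusted p = 0.0239 and 0.0386). Rsad2, viperin, makes a chain-terminating nucleotide together with Cmpk2, a nucleotide kinase beside it on chromosome 12; Rsad2 averaged 2.94 ± 2.44 FPKM in tumours and 5.24 ± 4.00 FPKM in adjacent samples, and Cmpk2 6.79 ± 2.83 and 6.46 ± 3.91 FPKM (SD, n = 5 each). Mx2 and Trim30a, a negative regulator of inflammatory signalling in mice, were at 0.56 to 1.95 and 2.37 to 10.7 FPKM in tumours and 0.29 to 2.95 and 3.69 to 15.8 FPKM in adjacent samples.

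None of the 5 interferon-inducible GTPases passed. These proteins, induced most by interferon gamma, attack the vacuoles in which bacteria and protozoa live. Irgm1, a regulator of the family and its most abundant member here, was at 24.4, 46.3, 33.3, 51.8 and 20.1 FPKM in tumours and 25.5, 55.1, 25.03, 25.8 and 20.2 FPKM in adjacent samples, a log2 change of 0.21 (SE 0.31). The groups covered almost the same range. Gbp2, Gbp3, Gbp7 and Igtp had log2 changes of -0.08, 0.60, 0.27 and 0.54, with SEs of 0.60, 0.47, 0.34 and 0.46; with medians subtracted that of Gbp7 was -0.06. Gbp3 reached 22.0 FPKM in tumour 4 and 18.6 FPKM in adjacent sample 2, against 4.38 to 6.04 FPKM in the other adjacent samples. Igtp overlaps Irgm2 on the same strand, and its reads may be shared with it; Gbp2 overlaps Mir6381 on the other strand.

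The 5 remaining members did not pass either. Ifi35, which forms a complex with NMI, was at 19.4, 29.3, 23.3, 30.8 and 14.1 FPKM in tumours and 23.6, 29.4, 21.7, 21.2 and 17.0 FPKM in adjacent samples, a log2 change of 0.02 (SE 0.21). Ifi44, Xaf1, a factor that favours apoptosis, Rtp4 and Parp14, an ADP-ribosyltransferase, had log2 changes of 0.06, 0.00, -0.25 and -0.27, with SEs of 0.58, 0.39, 0.45 and 0.30. Rtp4 overlaps Masp1 on the other strand. Adjacent sample 2 had 15.8 FPKM of Ifi44, against 1.2 to 3.77 FPKM in the other adjacent samples and 1.03 to 9.16 FPKM in tumours.

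**Figure D4:**
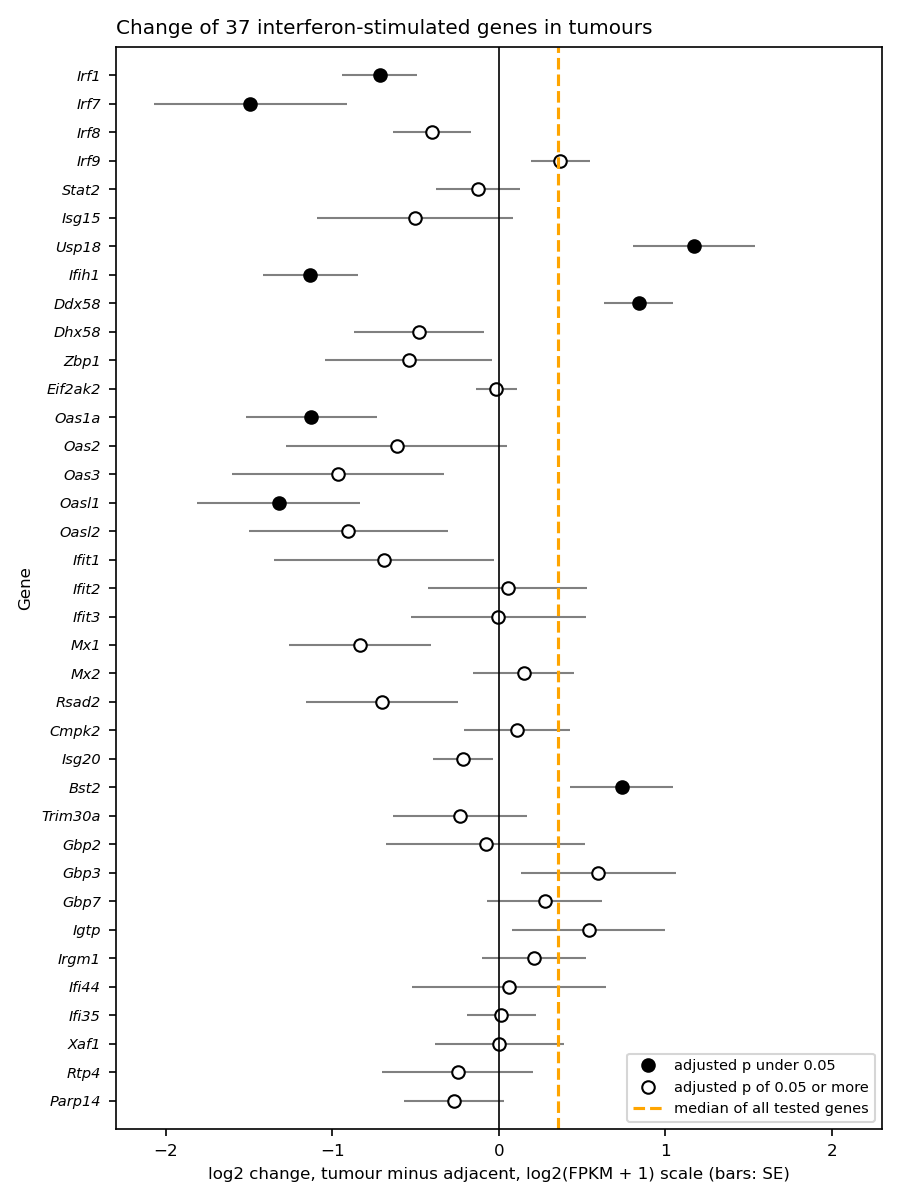
Log2 change of each of the 37 members, tumour minus adjacent, on the log2(FPKM + 1) scale, with SE bars; filled points passed an adjusted p of 0.05, and the dashed line is the median of all tested genes at 0.35. The 3 filled points right of zero are Usp18, Ddx58 and Bst2, and 31 of 37 points lie left of the dashed line.

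Interferon transcripts themselves were at or near 0, while receptor chains changed in opposite directions. Of 21 interferon ligand genes, 14 were listed at 0 in all libraries, among them Ifnb1, Ifnl2 and Ifnl3, and no ligand exceeded 0.51 FPKM; none passed the low-value filter. The highest value was of Ifne, the epithelial interferon epsilon, in tumour 3; Ifna1 and Ifna13 were above 0 in adjacent sample 5 alone, at 0.22 and 0.05 FPKM, and Ifnab, Ifnk and Ifnz reached at most 0.06, 0.05 and 0.19 FPKM in tumours and 0.06, 0.11 and 0.03 FPKM in adjacent samples. Ifng, interferon gamma, was at 0.07, 0.29, 0.10, 0.48 and 0.07 FPKM in tumours and 0.04, 0.38, 0.06, 0.03 and 0 FPKM in adjacent samples, highest in tumours 2 and 4 and in adjacent sample 2, the libraries with most of the 37 members. These are values of few fragments. Of the type I receptor chains, Ifnar1 averaged 17.9 ± 1.33 FPKM in tumours and 9.55 ± 1.24 FPKM in adjacent samples, and Ifnar2 22.5 ± 2.24 and 6.87 ± 2.25 FPKM (SD, n = 5 each). Both rose, by log2 changes of 0.84 (SE 0.09) and 1.62 (SE 0.18), with limma adjusted p = 2.66e-05 and 3.36e-05. Ifngr1, the ligand-binding chain of the interferon gamma receptor, was at 43.8, 125, 52.6, 73.2 and 52.2 FPKM in tumours and 131, 172, 165, 158 and 156 FPKM in adjacent samples. It fell without overlap, by 1.26 on the log2 scale (SE 0.24, limma adjusted p = 0.000819). Il10rb, a chain shared by the type III receptor, fell by 0.47 (SE 0.14, limma adjusted p = 0.00909), and Ifngr2 and Ifnlr1 did not pass, at means of 97.3 and 7.46 FPKM in tumours and 88.5 and 7.69 FPKM in adjacent samples. Ifnlr1 passed with medians subtracted, at -0.37 (limma adjusted p = 0.0032). The ratio of Ifnar2 to Ifngr1 was 0.211 to 0.474 in tumours and 0.0268 to 0.0708 in adjacent samples. Each of these genes alone separated the groups, in opposite directions, so their ratio had to separate them too.

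Of 111 tested genes of the wider pathway, out of 138 listed, 44 rose (39.6%) and 19 fell (17.1%), against 57.2% and 19.3% of all tested genes; with medians subtracted 26 rose (23.4%) and 34 fell (30.6%), against 34.5% and 33.3%. Of 11 signal transducers and inhibitors 7 rose (63.6%, against the 57.2% of all tested genes) and none fell (against 19.3%). With medians subtracted 3 rose (27.3%) and 2 fell (18.2%), against 34.5% and 33.3% of all tested genes. Socs3, an inhibitor of JAK kinases, averaged 45.3 ± 1.83 FPKM in tumours and 22.2 ± 9.42 FPKM in adjacent samples (log2 change 1.08, SE 0.22, limma adjusted p = 0.00109), and the phosphatase genes Ptpn6 and Ptpn11 rose by 0.68 (SE 0.09) and 0.62 (SE 0.09). Of 8 other interferon regulatory factors and their binding partners 6 rose (75.0%, against the same 57.2%) and 1 fell (12.5%, against 19.3%). With medians subtracted 3 rose (37.5%) and 1 fell (12.5%), against 34.5% and 33.3% of all tested genes. Irf5, a factor of macrophages, rose by 1.22 (SE 0.20), and Irf2bp1 and Irf2bp2, corepressors that bind IRF2, by 0.91 (SE 0.13) and 0.66 (SE 0.15). Irf2, which competes with IRF1 for the same sites, averaged 19.9 ± 2.17 FPKM in tumours and 34.7 ± 4.29 FPKM in adjacent samples, a fall of 0.77 (SE 0.10, limma adjusted p = 6.43e-05). Irf5 overlaps Tnpo3 on the other strand.

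Genes of nucleic acid sensing went both ways. Of 16 tested genes 7 rose (43.8%) and 4 fell (25%), against 57.2% and 19.3% of all tested genes; with medians subtracted 4 rose (25%) and 7 fell (43.8%), against 34.5% and 33.3%. Tmem173, which encodes STING, the adaptor of cytosolic DNA sensing, was at 98.5, 49.6, 93.3, 79.4 and 80.3 FPKM in tumours and 15.7, 10.3, 14.6, 9.52 and 22.2 FPKM in adjacent samples. It rose without overlap, by 2.41 on the log2 scale (SE 0.24; limma, adjusted p = 2.33e-05). Mb21d1, the DNA sensor cGAS upstream of it, rose by 0.91 (SE 0.12). Tlr8, an endosomal sensor of RNA, rose by 0.98 (SE 0.16), from 0.334 FPKM in adjacent samples to 1.67 FPKM in tumours on average. Its mean over all libraries was 1 FPKM, so it met the filter only through its tumour values, and its rise is not independent of the filter. Tlr7 and Tlr9, at means of 0.753 and 0.928 FPKM, were not tested. Mavs, the mitochondrial adaptor used by RIG-I and MDA5, fell by 0.46 (SE 0.08), Ticam1, the TRIF adaptor of Tlr3, by 0.62 (SE 0.10), and Trim25, a ubiquitin ligase that activates RIG-I, by 0.65 (SE 0.18; limma adjusted p = 0.00644).

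Other interferon-responsive genes outside the 37 also went both ways. Of 25 tested interferon gamma targets 8 rose (32.0%) and 1 fell (4.0%), against 57.2% and 19.3% of all tested genes. With medians subtracted 6 rose (24%) and 2 fell (8%), against 34.5% and 33.3%. Tgtp1 and Tgtp2, near-identical GTPase genes whose reads cannot be assigned with certainty, averaged 18.2 ± 10.8 and 20.3 ± 9.44 FPKM in tumours and 4.14 ± 2.3 and 3.88 ± 1.57 FPKM in adjacent samples, with log2 changes of 1.82 (SE 0.40) and 2.06 (SE 0.31). Cxcl9, a chemokine for T cells, rose by 1.91 (SE 0.50, limma adjusted p = 0.00545). Among other GTPase genes of the list, Gbp4, Gbp5, Gbp6, Gbp9 and Iigp1 rose, by 1.33, 0.96, 1.45, 1.75 and 1.46 (limma adjusted p 0.000169 to 0.0218). Gbp8, Irgm2 and Ifi47 did not pass. With medians subtracted or with quantile normalization Gbp5 and Iigp1 did not pass either. Psmb10, an immunoproteasome subunit, averaged 70.4 ± 26.9 FPKM in tumours and 105 ± 21.1 FPKM in adjacent samples; its fall of 0.64 on the log2 scale (SE 0.25) passed at a limma adjusted p of 0.0395 and was lost with no filter, with quantile normalization and without adjacent sample 1, 2, 3 or 4 or tumour 1, 3 or 5 (adjusted p 0.0505 to 0.0930 without 1 library). Of 46 further interferon-stimulated genes 14 rose (30.4%) and 11 fell (23.9%), against the same shares of all tested genes; with medians subtracted 8 rose (17.4%) and 19 fell (41.3%), against 34.5% and 33.3%. Ifitm1, Ifitm2 and Ifitm3, membrane proteins that block viral entry, averaged 364 ± 117, 549 ± 125 and 1055 ± 251 FPKM in tumours and 55.5 ± 28.8, 147 ± 35.5 and 168 ± 62.3 FPKM in adjacent samples, with log2 changes of 2.82 (SE 0.39), 1.89 (SE 0.20) and 2.68 (SE 0.27). The largest falls by log2 change in that list were of relatives of members: Ifit1bl1, an IFIT-like gene, fell by 2.38 (SE 0.74), Oas1g, a close relative of Oas1a, by 1.71 (SE 0.48), and Trim30d, of the Trim30 cluster, by 1.45 (SE 0.35). Ifit1bl1 was at 177 FPKM in tumour 2, within the adjacent range of 120.3 to 401 FPKM, at 119.9 FPKM in tumour 4, just under that range, and at 14.7 to 15.9 FPKM in the other 3 tumours.

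**Figure D5:**
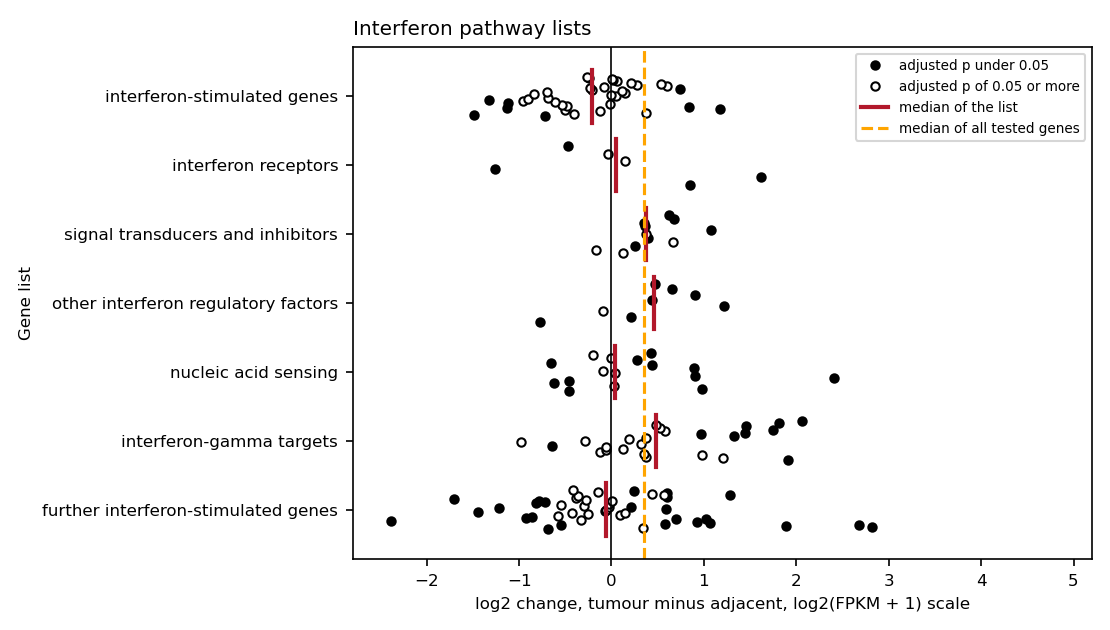
Log2 change, tumour minus adjacent, on the log2(FPKM + 1) scale, for the 37 members (top row) and 6 lists of other interferon pathway genes; each point is a tested gene, filled if its adjusted p was under 0.05, the red bar is the list's median and the dashed line the median of all tested genes. Most points of the top row are open, and the lists below hold filled points on both sides of zero.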

How the data were processed

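RNA sequencing covered 5 tumours and 5 adjacent samples. The labels' protocols give oligo-dT selection and the TruSeq RNA v2 kit. The authors deposited 1 table of FPKM per gene and library, per the file headers; 1 line of text in it was left out. The sources used here do not give the tool behind it. Among aligners and quantifiers the submitters' processing notes list RSEM 1.2.15, Salmon 0.8.2, TopHat2 2.1.0 and Cufflinks 2.2.1, with the build mm10.

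Depth is not in the table. Low values of short genes with 1 transcript gave a rough 24900000 to 30600000 fragments per library, with 68.3% to 76.8% of these values within 0.2 of a whole fragment; no counting interval was computed. Totals were 462009 to 484712 FPKM.

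Tests used limma 3.58.1 in R 4.3.3 on log2(FPKM + 1). The model held the group alone, and the empirical Bayes step was robust and followed the trend of spread with level. The 13016 genes averaging 1 FPKM or more over all libraries were tested, two-sided, with Benjamini-Hochberg adjustment over all of them and a threshold of 0.05. Changes of low genes come out too small on this scale. The procedure was tested on simulated data. Alternatives were other pseudocounts, filters and scalings, a replicate block and leaving out each library. Members and lists were chosen with earlier results of these data known. Genes named with full values were members past the threshold, without overlap or most abundant in their role group, detected ligands, all receptors, and up to 3 rises and 3 falls per pathway list; the other members have ranges, means or changes. Irf8, Irf9, Mx1 and Isg20 were singled out, and the ratios formed, after their values were seen. Coordinates are from GENCODE vM21 (GRCm38) and promoters from RefSeq (GRCm38.p6).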

Additional observations from a re-analysis of the deposited data

Results flagged for a closer look

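Adjacent sample 2 stood apart from the other 4 adjacent samples in 23 of 37 members. The gap to the nearest sample was more than 0.71 of the whole range. In all, 74 groups were examined, and all 23 that stood out were this library. Chance marks about 1 group in 20 where groups are independent and values are normally distributed. The gap was taken on FPKM and not on its log, and whether the rate holds for such values was not tested. The members move together across the same libraries, so the 23 are not separate events and that rate is not their chance value. Among regulators and sensors it had 191 FPKM of Irf7, 109 FPKM of Isg15, 21.1 FPKM of Usp18, 31.1 FPKM of Ifih1 and 125 FPKM of Zbp1. Of the synthetases it had 31.9 FPKM of Oas2, 33.8 FPKM of Oas3, 54 FPKM of Oasl1 and 101 FPKM of Oasl2. Of the IFIT genes it had 45.5 FPKM of Ifit1, 26.3 FPKM of Ifit2 and 17.1 FPKM of Ifit3. Of the effectors it had 2.95 FPKM of Mx2, 12.3 FPKM of Rsad2, 13.4 FPKM of Cmpk2 and 15.8 FPKM of Trim30a. Of the GTPases it had 96.2 FPKM of Gbp2, 18.6 FPKM of Gbp3, 12.3 FPKM of Gbp7, 41.2 FPKM of Igtp and 55.1 FPKM of Irgm1. Of the remaining members it had 15.8 FPKM of Ifi44 and 40.7 FPKM of Parp14. In all 23 it was the highest adjacent sample.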

How the results depend on the processing

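The calls of Irf1 and Ifih1 held under every alternative run, and those of Usp18 and Ddx58 under all but medians subtracted and quantile normalization. Of the members, 3 rose and 5 fell. With medians subtracted the counts were 0 and 8, and with quantile normalization 0 rose. With the replicate block, that is with the title number as a block, 9 members fell and 3 rose (32.4% called), against 2533 and 7534 of all tested genes (77.3% called); with the block and medians subtracted 20 fell and 2 rose (59.5% called), against 66.4% of all tested genes. Like-numbered libraries did not all deviate together (r of 0.02, 0.32, 0.02, 0.16 and 0.42 for numbers 1 to 5 over all tested genes), and only tumours 2 and 5 correlated best with their own number, so the numbers do not establish pairs. Without any 1 library 2 to 6 members fell and 2 to 4 rose: 2 fell without adjacent sample 2 or tumour 1 or 5, and 3 without adjacent sample 1 or tumour 3. Of other pathway genes, 44 rose and 19 fell; the counts were 26 and 34 with medians subtracted, 29 and 30 with quantile normalization and 27 and 40 with the block and medians subtracted. Of all tested genes, 7442 rose and 2509 fell, against 4486 and 4329, 4759 and 3934, and 4382 and 4265 under the same 3 settings. With medians subtracted 8 members changed sign, none of them called: Ifit2, Mx2, Cmpk2, Gbp7, Irgm1, Ifi44, Ifi35 and Xaf1. Among genes given in every library, signs turned for Irgm1 with medians subtracted (-0.12, with or without the block), for Ifngr2 likewise (-0.19), and for Ifi35 with medians subtracted (-0.31, with or without the block) and quantile normalization (-0.19); without any 1 library Ifi35 ranged between -0.092 and 0.18. The cause was not tested. Pseudocounts of 0.1 and 5 moved no count of members. Depth limits the ligands, at few fragments each.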
